A study of Mus musculus with 20 samples.

Results

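Solute carriers are membrane proteins that move small molecules such as amino acids, sugars, vitamins, nucleosides and ions across the plasma membrane and the membranes of organelles, and most of their gene symbols begin with Slc. The genes described here were all those read by either array type whose only symbol begins with Slc, leaving out the glucose transporters Slc2a1 and Slc2a4, with the probe set of highest mean standing for each gene. The rule gave 112 genes among 6137 genes with a single symbol, read by 141 probe sets, and 15 of them were mitochondrial carriers of the Slc25 family. A symbol is no proof of transport: Slc4a1ap and Slc9a3r1 name proteins that bind transporters, and both stayed among the genes with too little signal to test.

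The cells were 3T3-L1, a mouse embryo fibroblast line that turns into fat cells in culture and was used here as a single line, not as tissue. Cultures were taken preconfluent and confluent before induction, then 6, 12 and 24 hours and 2, 3, 4, 7 and 28 days after induction with the MDI mixture (methylisobutylxanthine, dexamethasone and insulin). All samples from 6 hours on had been induced, and no culture kept without the mixture to the same times is among the samples. Each of the 10 time points gave 1 sample of total RNA, hybridised to Affymetrix Mu11K array A and to array B, so that 91 genes were read on array A and 21 on array B.

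White fat cells make fatty acids from glucose carbon that leaves the mitochondrion as citrate, and they store the acids as triglyceride. The Slc25 carriers set what crosses the inner mitochondrial membrane: citrate, dicarboxylates, ADP and ATP, acylcarnitines. At the plasma membrane, other families supply amino acids, vitamins that serve as enzyme cofactors, fatty acids, nucleosides and metals.

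Values are array intensities as deposited, which fell below 0 for 22.8% to 31.2% of probe sets on an array. A floor of 136 on array A and 156 on array B replaced lower values before the log2 scale was used, and a probe set was tested when it exceeded 182 (array A) or 156 (array B) at 2 or more time points. Because no time point had a replicate, neighbouring times were joined into stages: before induction (2 samples), early (6 to 24 hours, 3 samples), middle (days 2 and 3, 2 samples) and late (days 4, 7 and 28, 3 samples). A call is an adjusted p under 0.05 in limma, with Benjamini-Hochberg adjustment over all 7582 tested probe sets. With stages in place of replicates, a p-value reflects how much nearby times differ within a stage, which may be technical. Of the 112 genes, 73 were tested, of which 38 exceeded the limit at all 10 time points and 8 at just 2. The number of samples limits the precision. In bulk RNA, fewer cells of a type and less RNA per cell cannot be told apart, which holds for every gene below.

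Late in differentiation the citrate carrier, the dicarboxylate carrier and the multivitamin transporter Slc5a6 read severalfold higher than before, together with the glutamine transporter Slc1a5. The nucleoside transporter Slc29a1, the zinc transporter Slc39a6 and the choline transporter-like gene Slc44a2 read lower. For Slc29a1 and Slc39a6 the call against before induction held in 4 of 17 alternative settings each, and Slc29a1 read 2210 on day 28. A second probe set of Slc39a6 was not called (-0.44 late against before, limma adjusted p = 0.607). Most solute carrier genes did not pass a test: 60 of the 73 were called in none. Against the stage before induction, 5 of 73 genes were higher late, where 5.82% of all tested probe sets were higher, and 3 were lower, where 5.08% of all were lower. Against the early stage, 6 were higher late (7.16% of all) and 3 lower (6.55% of all). A spline trend along the 10 time points called 11 genes, where 16.8% of all probe sets were called. The shares of solute carrier genes called were near these backgrounds, so the counts are no result about the family as a whole. The median log2 difference between late and before was 0.04 over the 73 genes and -0.05 over all probe sets.

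The counts moved with single samples. Late against before, 2 genes were higher without the preconfluent or without the confluent sample, and the 3 lower genes became 1 without any one of the preconfluent, 12-hour, 24-hour, day 2, day 3 and day 4 samples and 0 without the confluent sample. Late against early, 2 were higher without the 12-hour or the day 7 sample, and 0 were lower without the 6-hour or the 12-hour sample, although 6 had been lower at an unadjusted p under 0.05 in limma with all samples. The trend called 7 without the day 4 or the day 28 sample. With every probe set tested and no limit on low values, 1 gene was higher and 1 lower late against before, 3 were higher and 0 lower late against early, and 5 followed the trend.

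**Figure D1:**
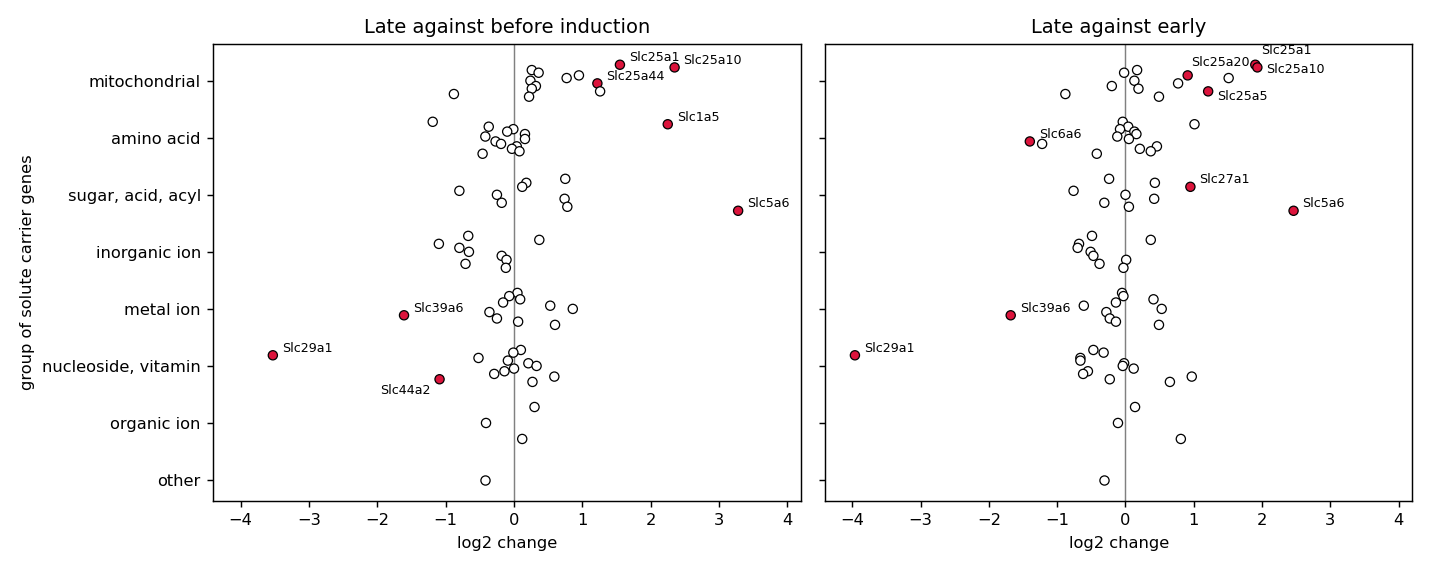
Each point is 1 of the 73 tested solute carrier genes, placed by its log2 change (horizontal axis) within its transport group (vertical axis, where points are spread only to separate them); red points were called at an adjusted p under 0.05 in limma. Left, the 3 late samples against the 2 before induction: 12 of 13 mitochondrial carriers lie to the right of 0, and Slc5a6 is farthest right at 3.28. Right, the 3 late samples against the 3 early ones: Slc29a1 is farthest left at -3.96.

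Of the 28 calls made on solute carrier genes, 5 held under every alternative setting tried, all of them on Slc25a1 and Slc5a6, and the bases before their start sites are shown for that reason. The sequences come from the RefSeq promoter table for GRCm38.p6, in which 93 of the 112 genes were found. For each gene the 250 bases before a start site are printed, 5′ to 3′ along the gene, with capitals marking CCAAT and GGGCGG on either strand (read as ATTGG and CCGCCC on the other). The Slc25a1 stretch is chr16:17928220-17928469 on the minus strand, and that of Slc5a6 is chr5:31048080-31048329 on the minus strand, before the more downstream of its 2 listed starts.
Slc25a1: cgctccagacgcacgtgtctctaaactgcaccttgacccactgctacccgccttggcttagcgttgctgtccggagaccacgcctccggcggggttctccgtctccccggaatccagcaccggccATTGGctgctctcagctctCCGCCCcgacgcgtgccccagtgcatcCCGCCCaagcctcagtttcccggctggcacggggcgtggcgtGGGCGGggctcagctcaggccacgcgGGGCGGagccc
Slc5a6: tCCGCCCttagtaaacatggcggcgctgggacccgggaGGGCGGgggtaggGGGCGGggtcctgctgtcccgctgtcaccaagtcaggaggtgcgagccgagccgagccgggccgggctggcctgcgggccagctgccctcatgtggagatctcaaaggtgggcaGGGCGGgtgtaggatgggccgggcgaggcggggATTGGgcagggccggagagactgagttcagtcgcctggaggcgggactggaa

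Both printed stretches hold CCAAT once and GGGCGG 4 times. This match depends on the start chosen for Slc5a6. The 250 bases before its other listed start hold no CCAAT, and GGGCGG at -150, -144 and -58. Over the whole windows of 300 bases (250 before to 50 after a start), GGGCGG stood in 8 of the 9 promoters of genes called higher late, from all 6 such genes with an entry, in 58.4% of 125 promoters of solute carrier genes and in 35.7% of 32851 promoters in the table. CCAAT stood in 5 of those 9 promoters, in 31.2% of solute carrier promoters and in 37.4% of all. The promoters of tested solute carrier genes were also richer in G and C, with a median of 60.7% against 52.7% for all. The C/EBP motif TTNNGCAA was in 8% of solute carrier promoters and 10.8% of all, the ATF4 and C/EBP composite TGATGNAA in 3.2% and 3.97%, and the nuclear receptor repeat spaced by 1 base (DR1) in 0 of 125 and 0.381%. None of these 3 motifs was in the 20 promoters of called genes. CCAAT and GGGCGG were added after the values had been seen, and a match of letters is a description of the window.

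Among the mitochondrial carriers, 13 of 15 genes were tested, and 12 of the 13 had a late mean above that before induction, where 46.6% of all tested probe sets did. The median log2 difference was 0.36, against -0.05 over all probe sets. Of the 13, 3 were called higher late than before (5.82% of all were) and none lower, 4 were called higher late than early (7.16% of all), and 5 followed the trend (16.8% of all). The calls fell on carriers of citrate, dicarboxylates, acylcarnitines and adenine nucleotides and on Slc25a44.

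Slc25a1, the citrate carrier, exports the citrate from which cytosolic acetyl-CoA is made. It read 4220 and 4600 in the preconfluent and confluent samples, 3120, 4200 and 3210 at 6, 12 and 24 hours, 5770 and 11500 on days 2 and 3, and 14400, 10600 and 14200 on days 4, 7 and 28. The 3 late samples all lay above the 5 taken up to 24 hours, and the largest step between neighbouring times was from day 2 to day 3. Late samples averaged 3.72-fold the early level (log2 1.90 ± 0.31 SE, limma adjusted p = 0.00332) and 2.94-fold the level before induction (1.55 ± 0.35, adjusted p = 0.0162). The second comparison was lost without the preconfluent sample (adjusted p = 0.101) or the confluent one (0.0664).

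Slc25a10, the dicarboxylate carrier, exchanges malate and succinate for phosphate. It read 1010 and 776 before induction, 1090, 1210 and 1260 at the early times, 1380 and 4690 on days 2 and 3, and 4180, 6800 and 3230 on days 4, 7 and 28. Every sample up to day 2 was at or below 1380 and every later one at or above 3230. On average the late stage stood at 5.10-fold the level before induction (2.35 ± 0.48, limma adjusted p = 0.0114) and 3.81-fold the early one (1.93 ± 0.43, adjusted p = 0.0152). The first comparison was lost without the preconfluent (adjusted p = 0.0612) or confluent sample (0.0802), the second without the 12-hour (0.0529) or day 7 sample (0.0572).

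Slc25a5, the ADP/ATP carrier ANT2, was read by a probe set of the type marked for sequence families, which may also bind related transcripts such as other ADP/ATP carriers. It read 7080 and 3390 before induction, 4300, 5470 and 5500 early, 7680 and 12800 on days 2 and 3, and 14400, 10100 and 11000 late. The late samples lay above all samples up to day 2, and the preconfluent one was about level with day 2. The late level was 2.31-fold the early one (1.21 ± 0.34, limma adjusted p = 0.0382), and this call was lost without any one of the 6 early and late samples (adjusted p = 0.0652 to 0.112). Against the stage before induction the difference was 1.26 ± 0.38 and was not called (adjusted p = 0.0585). The trend was called (adjusted p = 0.0159) but not without day 4 (0.0522). The 2 other probe sets of the gene had late values of 8650 to 13000 (array A) and 6850 to 10100 (array B), and over the 10 time points they followed the first with correlations of 0.98 and 0.85, on the same RNA. Late against before induction, the one on array A was called (1.20, limma adjusted p = 0.0433) and the one on array B was not (0.92, adjusted p = 0.0706).

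The muscle and heart form of the ADP/ATP carrier, Slc25a4, read 5430 to 8090 with no ordered change: 5430 and 8090 before induction, 6430, 7580 and 7620 early, 7400 and 7890 on days 2 and 3, and 8040, 8030 and 7480 late. Its late difference from before induction was 0.24 ± 0.20 (limma adjusted p = 0.50). A probe set for it on array A read 2950 to 3820. The late and earlier samples overlapped on both. As for Slc25a5, both probe sets are of the type marked for sequence families and may bind related transcripts such as other ADP/ATP carriers.

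Slc25a20 is the carrier that brings acylcarnitines into the mitochondrion for oxidation. It read 371 and 382 before induction, 417, 367 and 385 early, 348 and 421 on days 2 and 3, and 557, 756 and 919 on days 4, 7 and 28. Its late values stood above all 7 earlier ones, and the highest was at day 28. It was 1.87-fold higher late than early (0.91 ± 0.27, limma adjusted p = 0.0457), a call lost without any one sample other than day 4 (adjusted p = 0.0554 to 0.135), and the trend (adjusted p = 0.0217) was lost without day 28 (0.103). The other probe set of this gene read 177 to 489 up to day 3 and 755, 717 and 1040 late, with its own late difference from before induction of 1.61 (adjusted p = 0.0131).

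Slc25a44 has been described as a mitochondrial carrier of branched-chain amino acids. It read 185 and 180 before induction, 269, 148 and 366 early, 326 and 397 on days 2 and 3, and 417, 390 and 473 late. The late samples lay above all those before induction and the early ones. The 2.33-fold difference from before induction (1.22 ± 0.32, limma adjusted p = 0.0434) was lost without any one of 8 of the 10 samples (adjusted p = 0.064 to 0.171). A different probe set of the gene read 438 and 236 before induction and 225, 313 and 295 late, a difference of -0.23 (adjusted p = 0.742), so the gene's probe sets disagreed in direction.

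**Figure D2:**
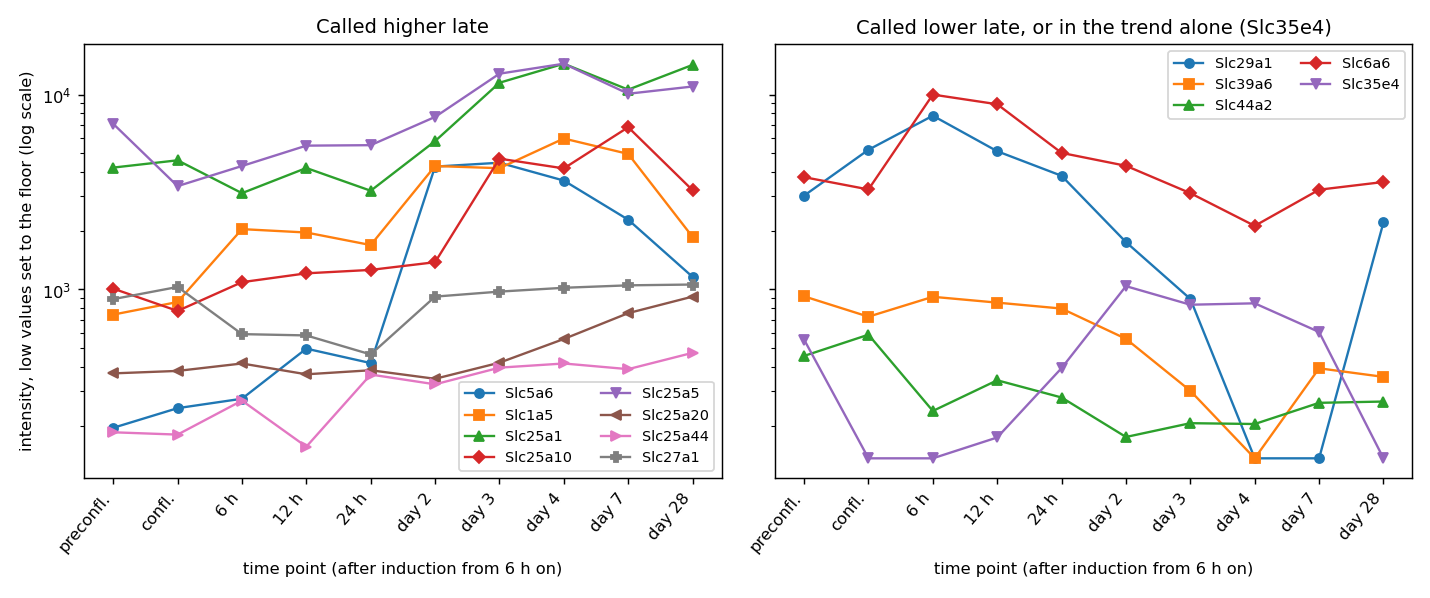
Intensity of the 13 called solute carrier genes at each of the 10 time points (log scale, low values set to the floor; time points are evenly spaced by order, 1 sample each and no error bars). On the left, Slc25a1, Slc25a5 and Slc25a10 are higher from day 3 on and Slc5a6 from day 2 on; on the right, Slc29a1 declines to the floor on days 4 and 7 and reads 2210 on day 28.

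No test called the other 7 tested mitochondrial carriers beside Slc25a4. Slc25a33, a pyrimidine nucleotide carrier, read 357 and 276 before induction, 257, 184 and 140 early, 134 and 684 on days 2 and 3, and 406, 558 and 675 late. All of its late samples were above all of its earlier ones up to day 2, with a late difference from early of 1.51 ± 0.51 (limma adjusted p = 0.0771). Slc25a51, the mitochondrial NAD carrier, was the tested mitochondrial carrier with a lower late mean: it read 956 and 832 before induction, 851, 1030 and 810 early, 562 and 975 on days 2 and 3, and 774, 358 and 407 late. Its difference from before induction was -0.88 ± 0.39 (adjusted p = 0.179), and its late samples overlapped neither those before induction nor the early ones.

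Slc25a17, the peroxisomal member of the family, read 1130 and 1170 before induction, 1500, 1320 and 1690 early, 1770 and 1440 on days 2 and 3, and 1370, 1640 and 1440 late. Slc25a15, the ornithine carrier, read 713 and 834, then 1000, 1060 and 518, then 867 and 917, then 739, 1210 and 874 in the same order. Their late differences from before induction were 0.36 ± 0.27 and 0.26 ± 0.37 (limma adjusted p = 0.458 and 0.72). For Slc25a17, the 2 samples before induction were below all 8 later ones. The stages of Slc25a15 overlapped.

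The remaining 3 were dimmer. Slc25a47, known from liver, read 347 and 535 before induction, 605, 381 and 400 early, 548 and 442 in the middle stage and 698, 327 and 605 late. Slc25a53 read 211 and 343, then 147, 292 and 258, then 332 and 274, then 308, 262 and 382. Slc25a45 stayed at or under 255 throughout, with 104 and 60 before induction, 213, 255 and 52 early, -14 and 71 in the middle stage and 187, 112 and 191 late. None of these differed between late and before beyond its spread (limma adjusted p = 0.732, 0.763 and 0.606). The untested carriers were Slc25a13 and Slc25a48.

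Sugar, monocarboxylate, fatty acid and acyl transporters had 9 of 11 genes tested. Late against before, 1 was called higher (5.82% of all tested probe sets were). Late against early, 2 were called higher (7.16% of all). None was lower in either comparison (5.08% and 6.55% of all). The grouping was by family number, and it takes in the gene with the largest rise among the 73, a vitamin transporter. Slc5a6, the sodium-dependent multivitamin transporter, takes up biotin, pantothenate and lipoate. It read 195 and 246 before induction, 275, 497 and 419 at 6, 12 and 24 hours, 4270 and 4470 on days 2 and 3, and 3620, 2280 and 1160 on days 4, 7 and 28. The step came between 24 hours and day 2, and the day 28 sample, although above all samples up to 24 hours, was the lowest of those from day 2 on. The late level was 9.70-fold that before induction (3.28 ± 0.45, limma adjusted p = 0.00181) and 5.51-fold the early one (2.46 ± 0.40, adjusted p = 0.00325), and the trend was called (adjusted p = 0.000969).

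Slc27a1, the fatty acid transport protein FATP1, read 892 and 1030 before induction, 590, 581 and 464 early, 919 and 975 on days 2 and 3, and 1020, 1050 and 1060 late. It was thus lower at the 3 early times than at any other, and its late samples were level with the confluent one. Its late mean was 1.93-fold the early one (0.95 ± 0.24, limma adjusted p = 0.025) and 0.12 on the log2 scale from that before induction (adjusted p = 0.828). The call was lost without the 12-hour (adjusted p = 0.0667), 24-hour (0.0742), day 7 (0.0622) or day 28 sample (0.0555). A probe set on array B read 352 and 574 before induction, 315, 242 and 344 early and 652, 668 and 608 late. Its correlation with the first was 0.84 over the same 10 RNAs. There the preconfluent value was about level with that at 24 hours. The late difference from before induction on array B was 0.51 and was not called (limma adjusted p = 0.222).

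The glucose transporter Slc2a8 was among the 6 brightest genes with no call. It read 720 and 1540 before induction, 1500, 1380 and 1100 early, 911 and 1390 on days 2 and 3, and 2070, 1280 and 2040 late (log2 0.74 ± 0.39 late against before, limma adjusted p = 0.279). Its late samples overlapped those before induction. The liver glucose transporter Slc2a2 stayed between 45 and 202, and Slc2a3 was not tested.

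Amino acid transporters had 14 of 22 genes tested. Of these, 1 was called higher late than before (5.82% of all tested probe sets were) and 1 lower late than early (6.55% of all). Late means were above those before induction for 5 of the 14 (46.6% of all) and below for 9 (53.4% of all). Slc1a5, the neutral amino acid transporter ASCT2 that takes up glutamine, read 743 and 862 before induction, 2040, 1960 and 1690 early, 4300 and 4190 on days 2 and 3, and 5950, 4960 and 1860 late. All 3 early samples were above those before induction, and day 28 was back in the early range. It rose 4.75-fold from before induction to late (2.25 ± 0.44, limma adjusted p = 0.00922, and 0.0763 without the preconfluent sample). The early level was 2.36-fold that before (1.24 ± 0.44) and was not called (adjusted p = 0.366).

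Slc6a6, the taurine transporter, had its highest values soon after induction. It read 3770 and 3260 before induction, 10000, 8920 and 5020 at 6, 12 and 24 hours, 4310 and 3120 on days 2 and 3, and 2120, 3250 and 3560 late. On this probe set the early samples were above all the others, and the late ones overlapped those before induction. The late level was 2.63-fold below the early one (-1.40 ± 0.34, limma adjusted p = 0.0204), a call lost without the 6-hour (adjusted p = 0.0724), 12-hour (0.0791) or day 4 sample (0.0604). The early level was 2.18-fold that before induction and was not called (1.13 ± 0.38, adjusted p = 0.324). The trend (adjusted p = 0.0403) was lost without any one sample other than the confluent one (0.0554 to 0.151). On 2 further probe sets the 6-hour values were 3680 and 2730 against 1230 and 907 at confluence, and their correlations with the first were 0.91 and 0.94. On both, the late samples lay below those before induction: 227, 877 and 953 against 1810 and 1230, and 258, 646 and 855 against 1100 and 907. These late differences were -1.38 and -0.94 and were not called (limma adjusted p = 0.197 and 0.255).

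Slc3a2, the CD98 heavy chain that pairs with light chains of the Slc7 family, read 4900 and 5150 before induction, 5640, 5110 and 4440 early, 5020 and 4800 on days 2 and 3, and 6440, 8060 and 3410 late. The late stage held both its highest and its lowest sample, and the difference from before induction was 0.16 ± 0.32 (limma adjusted p = 0.811). Its probe set is of the type that may bind related transcripts. Slc6a9, a glycine transporter, read 2160 and 1510, then 1580, 1220 and 1260, then 1160 and 1700, then 1930, 2330 and 1410 in the same order, a late difference of 0.04 ± 0.28 (adjusted p = 0.965). The stages of both genes overlapped. The cationic amino acid transporters Slc7a1 and Slc7a2 had late differences from before induction of -0.03 and 0.08. Slc38a2, a transporter of small neutral amino acids, had one of -0.01. These genes were dim, so such differences give little information on their levels. Slc7a1 was at or below the floor in 8 of the 10 samples, Slc38a2 (13 to 264) in 3 and Slc7a2 (129 to 255) in 1.

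**Figure D3:**
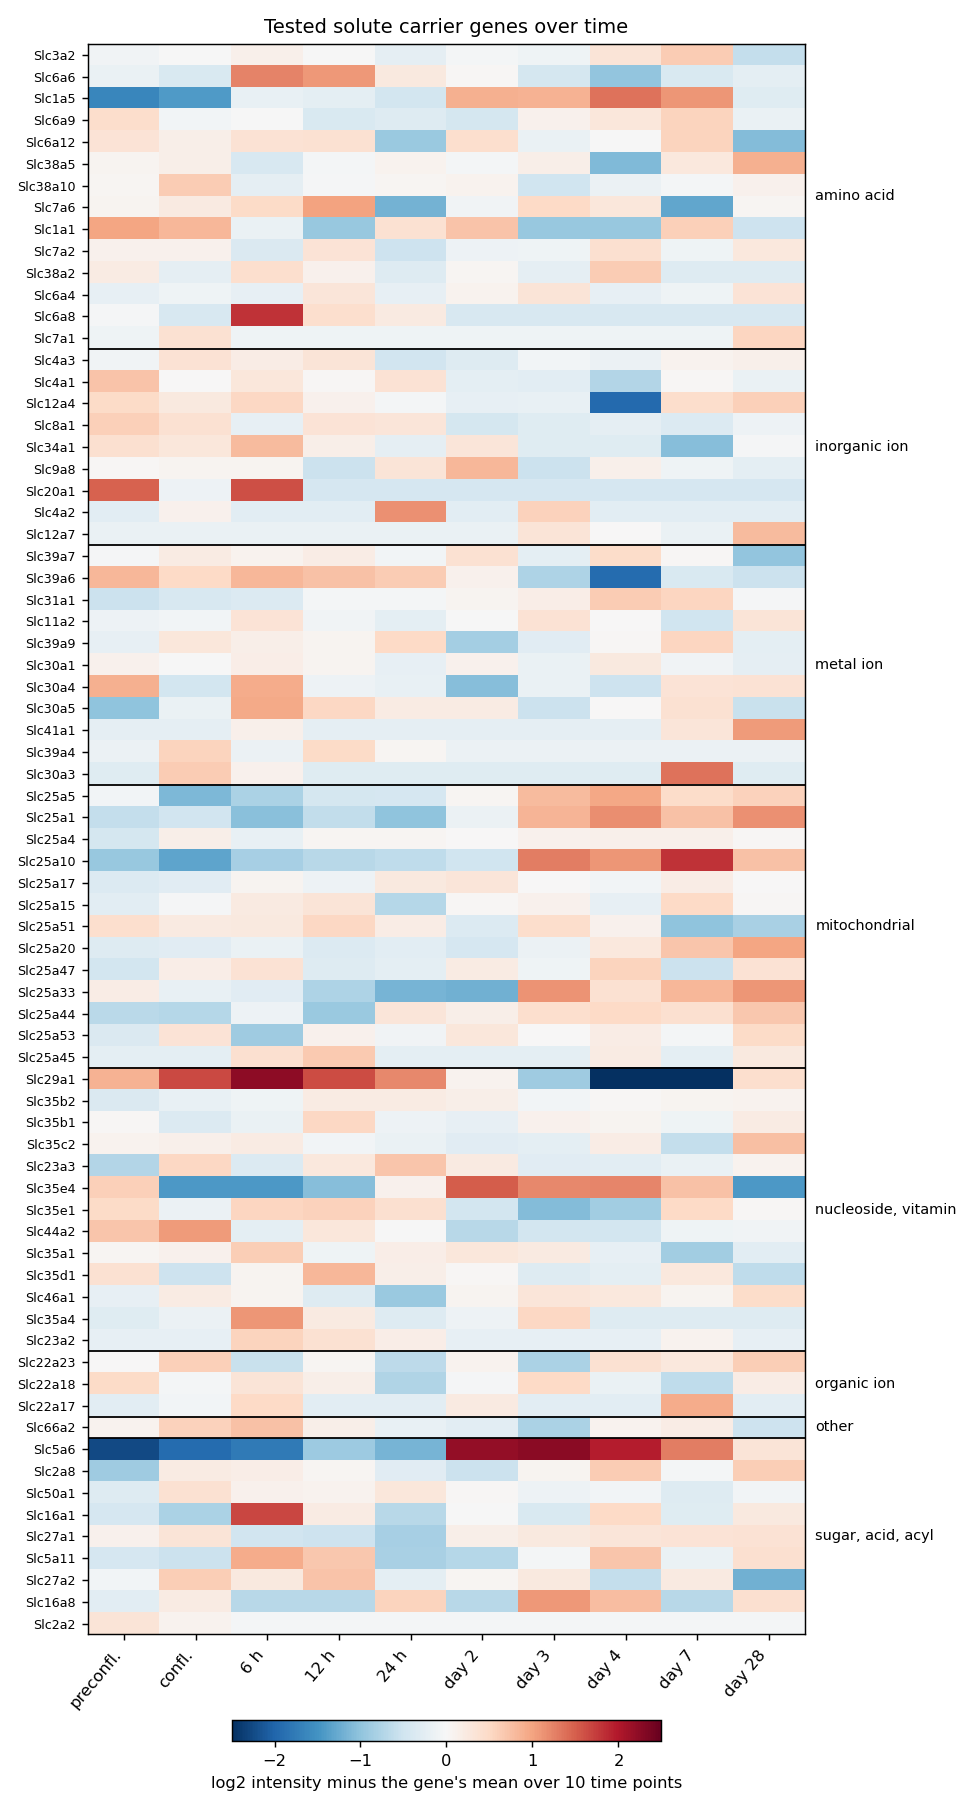
Log2 intensity of the 73 tested solute carrier genes (rows, by transport group and then by mean) at the 10 time points (columns, 1 sample each), minus the mean of each gene, red above it and blue below, with colours ending at 2.5. The citrate and dicarboxylate carriers and Slc5a6 turn red from day 2 or 3, Slc6a6, Slc6a8, Slc16a1 and Slc35a4 are redder at 6 hours than at confluence, and most rows stay pale.

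Nucleoside, nucleotide sugar, vitamin and choline transporters had 13 of 17 genes tested. Late against before, 2 were called lower (5.08% of all tested probe sets were). Late against early, 1 was called lower (6.55% of all). None was higher in either comparison (5.82% and 7.16% of all). Slc29a1, the equilibrative nucleoside transporter ENT1, read 3030 and 5210 before induction, 7790, 5120 and 3830 at 6, 12 and 24 hours, 1750 and 894 on days 2 and 3, and -10, -247 and 2210 on days 4, 7 and 28. From 6 hours each sample up to day 7 was below the one before it, days 4 and 7 were at the floor, and the day 28 sample rejoined the range of day 2 and the preconfluent sample. The bounds on the fold that follow are the smaller of the ratio of arithmetic means and that of geometric means with the floor in place, while the log2 values are differences of mean log2, so the pairs differ in size. By these bounds the late level was at least 6.74-fold below the early one (log2 -3.96 ± 0.89, limma adjusted p = 0.015) and at least 4.98-fold below that before induction (-3.53 ± 0.99, adjusted p = 0.0434). The first call was lost without the 6-hour (adjusted p = 0.0531), 12-hour (0.0513), day 4 (0.0554) or day 7 sample (0.0576), the second without any one sample other than day 28 (0.0584 to 0.204). The trend (adjusted p = 0.0146) was lost without day 4 (0.0741).

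Slc44a2, a choline transporter-like protein, read 456 and 586 before induction, 238, 342 and 279 early, 175 and 206 on days 2 and 3, and 204, 262 and 266 late. All 8 samples after induction were below both of those before it. By the late stage it was 2.13-fold lower than before induction (-1.09 ± 0.22, limma adjusted p = 0.0164, and 0.0897 without the confluent sample), and the early one differed by -0.87 ± 0.22 (adjusted p = 0.202). Slc35e4, a member of the nucleotide sugar transporter family, was called in the trend alone (adjusted p = 0.0043): 553 and 95 before induction, 54, 174 and 395 early, 1040 and 835 on days 2 and 3, and 849, 605 and 70 late. It was highest from day 2 to day 4, and at the floor at confluence, 6 hours and day 28. This call was lost with a spline of 2 degrees of freedom (adjusted p = 0.521) and with no filter (0.051). The Golgi carriers Slc35b1 and Slc35b2 read 722 to 1320 and 953 to 1410, with late differences of 0.21 and 0.33 from before induction.

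Among metal ion transporters, 11 of 13 genes were tested and 1 was called lower late, against both the stage before induction and the early one. Of all tested probe sets, 5.08% were lower late than before and 6.55% lower late than early. Slc39a6, the zinc importer ZIP6, read 922 and 725 before induction, 917, 856 and 798 early, 558 and 302 on days 2 and 3, and 64, 394 and 356 late. The late samples lay below all samples up to day 2, with day 4 at the floor. With the bounds computed as for Slc29a1, the late level was at least 2.90-fold below the early one (log2 -1.68 ± 0.41 with the floor in place, limma adjusted p = 0.0213; 0.0629 without the 6-hour and 0.0684 without the 12-hour sample) and at least 2.79-fold below that before induction (-1.61 ± 0.46, adjusted p = 0.0453; lost without any one sample other than days 7 and 28, at 0.0521 to 0.23). The trend (adjusted p = 0.027) was lost without day 3 (0.075), day 7 (0.0531) or day 28 (0.0756). A second probe set, without the mark for related transcripts, read 305 and 377 before induction and 55, 464 and 250 late (-0.44, adjusted p = 0.607).

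Slc39a7, a zinc transporter of the secretory pathway, was another of the 6 brightest uncalled genes. It read 1280 and 1510 before induction, 1390, 1480 and 1240 early, 1710 and 1100 on days 2 and 3, and 1810, 1330 and 659 late, a difference of -0.25 ± 0.41 (limma adjusted p = 0.754). Its day 28 sample was the lowest of the 10, and the late stage overlapped the others. Slc31a1, the copper importer CTR1, had a late difference of 0.86 from before induction (adjusted p = 0.0933), with values from 361 to 820, and Slc11a2, the iron importer DMT1, one of 0.05.

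Inorganic ion exchangers and cotransporters had 9 of 20 genes tested and none called in any test. Late means were below those before induction for 8 of the 9, where 53.4% of all tested probe sets were, with a median log2 difference of -0.66, where the median over all probe sets was -0.05; at an unadjusted p under 0.05 in limma, 1 was lower and none higher. Slc8a1, a sodium-calcium exchanger, was the one nearest to a call (-0.71, adjusted p = 0.0595), from 705 and 606 before induction to 402, 372 and 429 late, without overlap. The anion exchanger Slc4a1 had probe sets on arrays A and B that ran against each other over the 10 time points (correlation -0.40). Its late differences from before induction were -0.66 on array A and 0.95 on array B, where the limma trend had an adjusted p of 0.0452. Some of the 8 lower means rest on few values. Slc12a4 read 129 on day 4 but 703 and 782 on days 7 and 28, and Slc4a2 was at or below the floor in 7 of 10 samples.

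Organic ion and bile acid transporters had 3 of 11 genes tested (Slc22a17, Slc22a18 and Slc22a23) and none called, with late differences from -0.41 to 0.30. In the group of other families, Slc66a2 was tested and not called (-0.42).

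**Figure D4:**
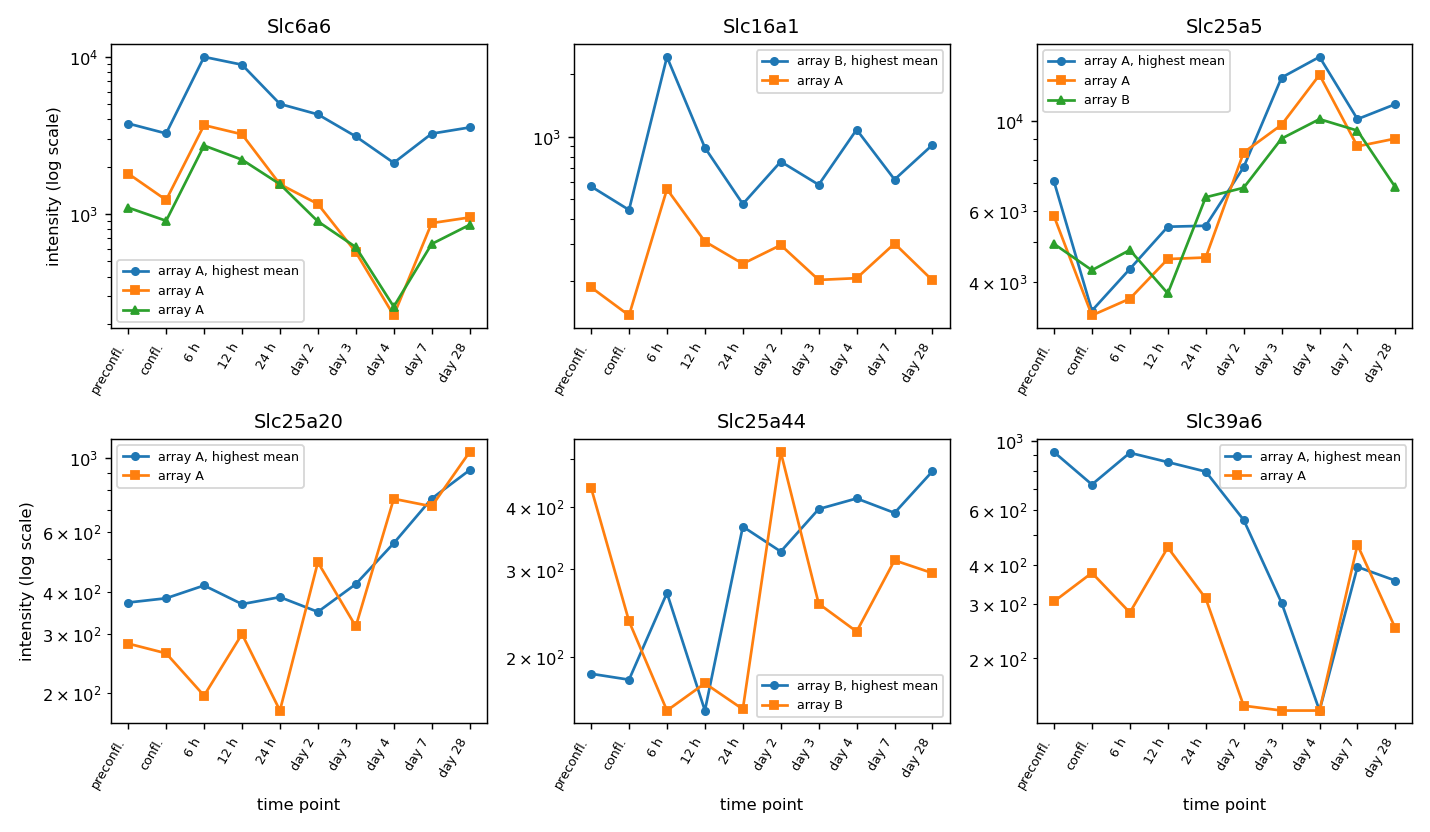
Intensity (log scale, low values set to the floor) over the 10 time points, 1 sample each, for every probe set of 6 solute carrier genes, with the probe set of highest mean in blue. All 3 probe sets of Slc6a6 and both of Slc16a1 are highest at 6 hours, all 3 of Slc25a5 are highest on day 4, both of Slc25a20 are highest on day 28, and those of Slc25a44 and Slc39a6 differ from each other.

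Early against before induction, limma called 0 of the 73 genes higher and 0 lower, where 0.198% and 0.158% of all tested probe sets were called; at an unadjusted p under 0.05 there were 4 and 2. The first sample after induction held the highest value of 13 genes (17.8% of 73, where 10.8% of all tested probe sets peaked there), and day 28 held that of another 13 (17.8%, where 11.3% of all peaked there). The preconfluent and confluent samples held the peaks of 5 and 6 genes (6.85% and 8.22%, where 13.5% and 12.3% of all peaked).

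A comparison of the 6-hour sample with the confluent one was added after these values had been seen, rests on 1 sample each and has no test. By it 9 of 73 genes were at least 2-fold higher at 6 hours (12.3%, where 6.81% of all probe sets were) and 3 at least 2-fold lower (4.11%, where 6.53% were). Slc16a1, the monocarboxylate transporter MCT1 for lactate and pyruvate, stood at 441 at confluence and 2430 at 6 hours, 5.51-fold higher, then at 883 and 471 at 12 and 24 hours. Its array A probe set read 128 and 556 at the same times.

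Slc6a8, the creatine transporter, stood at 4 at confluence and 633 at 6 hours, 4.65-fold over the floor, then at 240 and 209, and its 4 samples from day 2 to day 7 were at the floor. Slc20a1, a sodium-phosphate cotransporter, read 167 and 560 at confluence and 6 hours but 507 in the preconfluent sample. The zinc transporters Slc30a4 and Slc30a5 were 2.60-fold and 2.15-fold higher at 6 hours than at confluence, the inositol transporter Slc5a11 2.75-fold, the taurine transporter Slc6a6 3.07-fold, the glutamine transporter Slc1a5 2.37-fold and Slc35a4 2.39-fold. Of the 9, Slc30a4 and Slc20a1 had preconfluent values (526 and 507) close to those at 6 hours (538 and 560). A probe set for Slc30a5 on array B read 252 at confluence and 376 at 6 hours, short of 2-fold. The 3 lower ones were Slc44a2 (2.46-fold), Slc25a53 (2.33-fold) and Slc22a23 (2.24-fold).

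A second comparison added after the values had been seen set day 28 against days 4 and 7, again without a test. At least 2-fold below both were 4 of 73 genes (5.48%, where 2.66% of all probe sets were): Slc1a5, Slc35e4, Slc39a7 and the betaine transporter Slc6a12, which read 1190, 1760 and 562 on days 4, 7 and 28. At least 2-fold above both was 1 gene (1.37%, where 3.52% were), Slc29a1. Slc5a6 was 3.12-fold lower on day 28 than on day 4 and 1.97-fold lower than on day 7. Of the 4 preadipocyte markers, 3 were higher on day 28 than on days 4 and 7. On days 4, 7 and 28, Dlk1 read 1700, 685 and 3140, Thy1 1620, 674 and 4240, and Pdgfrb 199, 354 and 953. Pdgfra was at the floor on these days (38, -25 and -88). The brown fat marker Cox8b also read 1910 on day 7 and 6610 on day 28. Of the adipocyte markers, Adipoq (17700, 16500 and 19900 on days 4, 7 and 28) and Lipe (15600, 20000 and 23100) were highest on day 28. Fabp4 (28400, 12700 and 25900) was higher on day 28 than on day 7 but lower than on day 4. Pparg (1640, 1210 and 1180) was about level with day 7 and below day 4, and Cebpa (1700, 1990 and 1470) was below both. The part of these markers in the day 28 values of the transporters was not tested.

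Carriers and pumps outside the Slc symbols give the setting. Of 17 related carriers named, 6 were on the arrays and 5 tested. Of these, 1 was higher late than before (5.82% of all tested probe sets were) and 2 higher late than early (7.16% of all). None was lower (5.08% and 6.55% of all). The fatty acid receptor Cd36 read at or below the floor in the 5 samples up to 24 hours and 8790, 9090 and 8790 late, at least 57.0-fold higher, and the mitochondrial outer membrane protein Mtch2 was 2.25-fold higher late than early (1.17 ± 0.31, limma adjusted p = 0.0288). Ucp1, the uncoupling protein of brown fat, was at or below the floor in all 10 samples (-46 to 79). The other brown fat markers named were not: Cox8b was at or below the floor up to day 3 and read 167, 1910 and 6610 on days 4, 7 and 28 (late against early limma adjusted p = 0.048), and Cidea exceeded the limit on day 28 alone, at 964. Of 15 pump genes, 8 were on the arrays and 7 tested, and 1 was called lower late than before (5.08% of all tested probe sets were). This was Atp1b1, a subunit of the sodium pump whose gradient drives many solute carriers. It fell from 3830 and 3980 before induction to 321, 387 and 560 late, 9.49-fold lower (-3.25 ± 0.38, limma adjusted p = 0.00193).

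Differentiation itself showed in the markers: 5 of 7 adipocyte markers were on the arrays and all 5 were called higher late, with their summed intensity moving from 389 to 894 before induction to 52400 to 71550 late, and 3 of 4 preadipocyte markers were called lower (sums of 15762 to 20455 before and 1713 to 8333 late). Of 8 macrophage markers, 2 were called lower late than before, Cd14 and C1qc (5.08% of all tested probe sets were). Adgre1, Csf1r and C1qa were at or below the floor throughout. Ptprc (1000 to 1720) and Cd14 (1000 to 2470) exceeded the limit at all 10 time points, Lyz2 at 9, and Cd68 and C1qc at 8. The sums were 5362 to 5431 before and 2806 to 4586 late. Of 5 endothelial markers 1 was called higher, Icam2 (5.82% of all tested probe sets were), and Pecam1 and Cdh5 were at or below the floor. Kdr (538 to 1010) and Icam2 (372 to 791) exceeded the limit at all 10 time points, and Tek at 2. The sums were 1419 to 1442 and 1329 to 1685. Of 6 skeletal muscle markers 1 was called higher, with sums of 4114 to 4531 and 4046 to 4154.

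The 39 untested genes had intensities from -1400 to 351, and 29 of them were at or below the floor at all 10 time points; 34 never exceeded the limit and 5 did so at 1 time point. By number, the largest group among them was that of inorganic ion exchangers and cotransporters, of which 11 of 20 were untested. These were Slc12a1, Slc12a2, Slc12a3, Slc17a1, Slc26a2, Slc34a2, Slc4a5, Slc4a8, Slc9b2 and the binding proteins Slc4a1ap and Slc9a3r1. Organic ion transporters had the larger share untested, 8 of 11: Slc10a1, Slc10a2, Slc10a6, Slc22a6, Slc22a30, Slco3a1, Slco5a1 and Slco6c1, most of them known from liver, kidney, gut or testis. Among amino acid transporters 8 of 22 were untested (Slc1a2, Slc1a4, Slc1a6, Slc6a13, Slc6a15, Slc7a3, Slc7a8 and Slc15a2). The others were Slc11a1, Slc39a3, Slc19a1, Slc29a2, Slc35g3, Slc44a4, Slc33a1, Slc2a3, Slc32a1, Slc51a, Slc25a13 and Slc25a48. A probe set without signal on these arrays gives no level for the gene, and differences below the floor were not detectable.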

How the data were processed

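The deposited values are Affymetrix intensities on a linear scale, given per probe set in the authors' value tables, with negative values kept. Per the labels, total RNA was extracted with Trizol and made into biotinylated cRNA by the Affymetrix protocol; the software that made the values is not given in the sources used here. Trimmed means of 500.9 to 501.1 show that each array had been scaled to a common level. The ratios of 3′ to 5′ probe sets were 0.986 to 1.61 (array A) and 0.722 to 0.815 (array B) for Gapdh.

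Of 13179 probe sets, 110 controls were left out. Genes were named from GEO's platform annotation, where 7542 probe sets had 1 symbol and 224 several; 4 Slc probe sets with several symbols were left out, and all 112 symbols were found by Entrez ID in RefSeq's table for GRCm38.p6. The floor was the size of the 10th percentile of an array type (-136 and -156), the limit the larger of the floor and the median. A stage model (6 residual degrees of freedom) and a natural spline with 3 degrees of freedom were fitted in limma 3.58.1 (R 4.3.3), separately for arrays A and B, after the fit had been tested on simulated data. A fold is written "at least" where the dimmer stage held a sample at the floor, and is then the smaller of the ratios of arithmetic and geometric means; other folds are ratios of geometric means. Values are given for each gene called in any test, each tested Slc25 gene and the 6 uncalled genes of highest mean. The members and lists were chosen with earlier results of these data known. Alternatives were another floor, a square root form, no filter, quantile normalization, other probe set rules, a spline with 2 degrees of freedom and leaving out each time point.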

Additional observations from a re-analysis of the deposited data

How the results depend on the processing

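Of the 28 calls on solute carrier genes, 5 were kept under every alternative (Slc5a6 in 3 tests, Slc25a1 late against early and in the trend). The counts that moved by more than 1.5 times were as follows. Genes lower late than before were 3, and 1 with the floor halved, with the square root form or with no filter. With no filter, genes higher late than before went from 5 to 1, higher late than early from 6 to 3, lower late than early from 3 to 0, and in the trend from 11 to 5; a spline with 2 degrees of freedom called 7. Leaving out a time point gave 2 to 5 genes higher and 0 to 3 lower late than before, 2 to 6 higher and 0 to 4 lower late than early, and 7 to 10 in the trend. Without the probe sets marked for related or shared sequences, Slc25a44 turned to -0.23 late against before (limma adjusted p = 0.75), since another probe set then stood for it. Slc39a6 was then at -0.44 late against before (adjusted p = 0.614). Early against before, limma called 0 genes in every setting, with 4 higher and 2 lower at an unadjusted p under 0.05 in the setting reported. Smaller moves included 7 genes higher late than before with the floor doubled, 8 in the trend with the floor halved and without the marked probe sets, and 2 lower late than early with the mean over probe sets. Under quantile normalization the counts were 6 and 3, 6 and 3, and 11. The causes of these shifts were not tested, other than the change of probe set. No paired analysis was possible because each time point has 1 sample and the labels carry no replicate numbers. With 1 sample a time point, changes at a single time, and any at or below the floor, have no test.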
